A study of Mus musculus with 4 samples.

Results

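Of the 20599 gene symbols quantified in wild-type mouse B cells, 7 genes that process or repair the DNA lesions made in immunoglobulin genes during somatic hypermutation and class switching were followed: Ung, Apex1, Msh6, Exo1, Polh, Atm and Trp53bp1. They were chosen by name, and the count of each was the sum of the expected counts (reads assigned to a gene, divided where a read fits several entries) of all entries that carry its symbol. All 7 had 1 entry and all 7 passed the filter on low counts. Ung and Exo1 lay at or under 3 counts, each in B1a replicate 1 alone, where both were at 0.

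The study compared B1a cells, self-renewing B cells of the body cavities, with conventional B2 cells, with and without the DNA methyltransferase gene Dnmt3a. The 4 wild-type RNA-Seq libraries are described here, 2 of CD23- IgM+ CD5+ B1a cells sorted from peritoneal washes and 2 of IgDhi IgMlo CD21+ follicular B2 cells sorted from spleen. All carry the labels C57BL/6, wild-type and 4 weeks of age, no treatment was given, and the methods give a greater age for the mice that provided the B2 cells. The methods name littermates as controls for the RNA-Seq and C57BL/6J mice as controls in general, and name 2 control mice for each cell type, which the labels do not tie to the replicate numbers.

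Cell type, tissue and possibly age differ together between the groups, and their contributions cannot be told apart. In bulk RNA, fewer cells expressing a gene and less RNA for each cell cannot be told apart either. The library totals were 11032732 to 18588623 counts, so that 3 counts correspond to 0.161 to 0.272 CPM (counts scaled to the total of the library). The sort markers followed the labels: Fcer2a (CD23) was at 63.7 and 61.0 CPM in B1a cells and at 934 and 896 CPM in B2 cells, and Cd5 was at 15.9 and 22.4 CPM in B1a cells and at 5.47 and 2.25 CPM in B2 cells. The B1a libraries were less alike than the B2 libraries, with a Pearson r of log2 CPM over the 12078 tested genes of 0.836 against 0.966. This r is across genes, which are not independent replicates.

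In an activated B cell, cytosines of immunoglobulin genes are converted to uracil. The uracil is either removed by the base excision enzymes UNG and APE1 (encoded by Apex1), or recognized as a U:G mismatch by a sensor that contains MSH6, after which EXO1 resects the strand and DNA polymerase eta (Polh) fills the gap with errors at A:T pairs. In switch regions the resulting breaks engage the kinase ATM and the end-protection factor 53BP1 (Trp53bp1), and the ends are then joined. The same enzymes maintain the genome in all cells, so their transcripts are not restricted to cells undergoing mutation or class switching.

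None of the 7 genes differed between B1a and B2 cells at a Benjamini-Hochberg adjusted p under 0.05 in edgeR's quasi-likelihood test over all tested genes, where 5.74% of genes passed (4.24% of genes with the higher level in B1a cells, 1.5% with that in B2 cells). None had an unadjusted p under 0.05 either, against 20.9% of all genes, and no member was called by DESeq2. The fold changes lay between -1.67 for Ung and 0.25 for Trp53bp1 on the log2 scale (B1a minus B2), with 6 of 7 below 0. The median was -0.66, against -0.03 over all tested genes and -0.26 over the 60 other tested genes of the pathway. In 4 of 7 members (Ung, Apex1, Msh6 and Polh) both B1a libraries were below both B2 libraries, an arrangement that 29.0% of all tested genes showed (54.3% were without overlap in either direction). With 2 libraries a group, an exact permutation test of a single gene cannot go below p = 0.33 (two-sided), so these arrangements carry no test of their own.

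**Figure D1:**
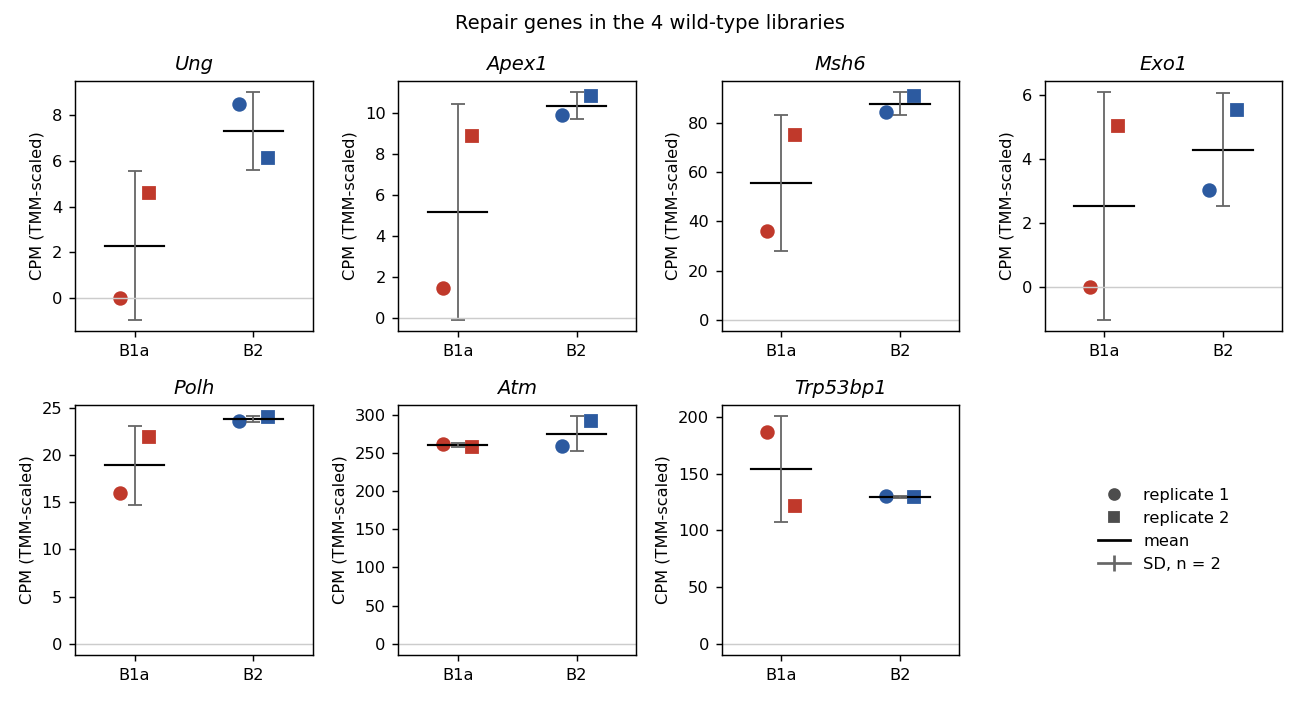
Level of each of the 7 genes in CPM, scaled by the TMM method, in 2 B1a (red) and 2 B2 (blue) libraries; circles are replicate 1, squares replicate 2, black lines means and grey bars the SD (n = 2). Ung and Exo1 are at 0 in B1a replicate 1, which is the lowest library for 5 of the 7 genes, while Atm is at 259 to 292 CPM in all 4.

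Ung (chr5:114130366-114139321, mm10, plus strand) encodes the main uracil-DNA glycosylase. Its deposited expected counts were 0 and 51 in B1a replicates 1 and 2, and 98.1 and 117 in B2 replicates 1 and 2. As TMM-scaled CPM, the levels were 0 and 4.59 in B1a cells and 8.50 and 6.12 in B2 cells. The groups did not overlap, but B1a replicate 2 was closer to B2 replicate 2 than to B1a replicate 1. The fitted log2 fold change was -1.67 (SE 1.90, n = 2 against 2), with an approximate 95% interval of -6.33 to 2.99 and an edgeR adjusted p of 0.706. Taking 3 counts as the limit that a count of 0 allows (0.269 CPM), Ung in B1a replicate 1 was at least 17.1-fold lower than in the other B1a library and at least 27.2-fold lower than the B2 mean. This limit covers counting error only. Without B1a replicate 1 the log2 fold change was -0.67 (edgeR adjusted p = 0.426), and with all libraries it reached -3.92 in limma-voom. In the RefSeq annotation the 5′ end of Ung overlaps its neighbour Alkbh2, and whether the counting used the strand is not given in the sources used here.

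Apex1 (chr14:50924949-50927188, plus strand) encodes the endonuclease that cuts the abasic site left by UNG. It had 16.5 and 98.6 counts in the B1a libraries and 114 and 207 in the B2 libraries. The corresponding levels were 1.43 and 8.90 CPM in B1a cells and 9.89 and 10.8 CPM in B2 cells. B1a replicate 2 was thus close to both B2 libraries, and B1a replicate 1 alone was far below them. The log2 fold change was -1.0 (SE 1.03, 95% interval -3.54 to 1.54, edgeR adjusted p = 0.669), and it was -0.22 without B1a replicate 1. The posterior SD that RSEM gave for the Apex1 count, 3.07 counts in B1a replicate 1 and 10.2 counts in B2 replicate 2, was above 0 in every library, which marks reads that were divided between entries. It was also above 0 in every library for Atm (0.94 to 1.19 counts) and for Trp53bp1 (11.3 to 16.4 counts, from totals of 1348 to 2471).

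Msh6 (chr17:87975050-87990892, plus strand) encodes a subunit that recognizes the mismatch. The counts were 401 and 834 in the B1a libraries and 974 and 1741 in the B2 libraries. The levels were 35.9 and 75.0 CPM in B1a cells and 84.5 and 91.0 CPM in B2 cells. Here too the groups did not overlap, with B1a replicate 2 lying near the B2 libraries. The log2 fold change was -0.66 (SE 0.36, 95% interval -1.55 to 0.23), with an edgeR adjusted p of 0.383 and a range of 0.0959 to 0.347 over the 9 alternatives that used all libraries. Without B1a replicate 1 it was -0.23 (edgeR adjusted p = 0.399).

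Exo1 (chr1:175880768-175911396, plus strand), the exonuclease that resects from the mismatch, was the least abundant of the 7 genes in B2 cells. Its counts were 0 and 56 in the B1a libraries and 35 and 106 in the B2 libraries. The levels were 0 and 5.04 CPM in B1a cells and 3.04 and 5.54 CPM in B2 cells, so B1a replicate 2 lay between the B2 libraries. The log2 fold change of -0.77 had an SE of 2.02 and a 95% interval of -5.73 to 4.19 (edgeR adjusted p = 0.891). Its direction rested on B1a replicate 1, since it was 0.22 without that library (edgeR adjusted p = 0.848), and with all libraries it reached -3.27 in limma-voom. In B1a replicate 1, Exo1 was at least 18.7-fold lower than in the other B1a library, with the same limit of 3 counts.

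Polh (chr17:46171355-46202641, minus strand), the polymerase that writes most A:T mutations, varied less. It was measured at 178 and 244 counts in B1a cells and at 273 and 461 counts in B2 cells. This corresponds to 16.0 and 21.9 CPM against 23.7 and 24.1 CPM. Both B1a libraries were below both B2 libraries, by a mean of 18.9 ± 4.23 against 23.9 ± 0.295 CPM (SD, n = 2 each). The log2 fold change was -0.33 (SE 0.39, 95% interval -1.29 to 0.62, edgeR adjusted p = 0.714).

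The 2 break-response genes were the most abundant members in CPM. Atm (chr9:53437122-53536828, minus strand), the kinase activated by double-strand breaks, was at 263 and 259 CPM in B1a cells and 260 and 292 CPM in B2 cells, from 2879 to 5592 counts. The groups overlapped, and the log2 fold change was -0.08 with the narrowest interval of the 7 genes, -0.40 to 0.23 (SE 0.13, edgeR adjusted p = 0.801). Trp53bp1 (chr2:121194835-121296354, minus strand), which protects broken switch-region ends from resection, was at 187 and 121 CPM in B1a cells and 130 and 129 CPM in B2 cells. B1a replicate 1 was the highest and B1a replicate 2 the lowest library, so the groups overlapped, and the log2 fold change of 0.25 (SE 0.23, 95% interval -0.32 to 0.82, edgeR adjusted p = 0.626) was -0.10 without B1a replicate 1. The sign of Trp53bp1 also depended on the scale, at -0.01 on log2(TPM + 1).

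**Figure D2:**
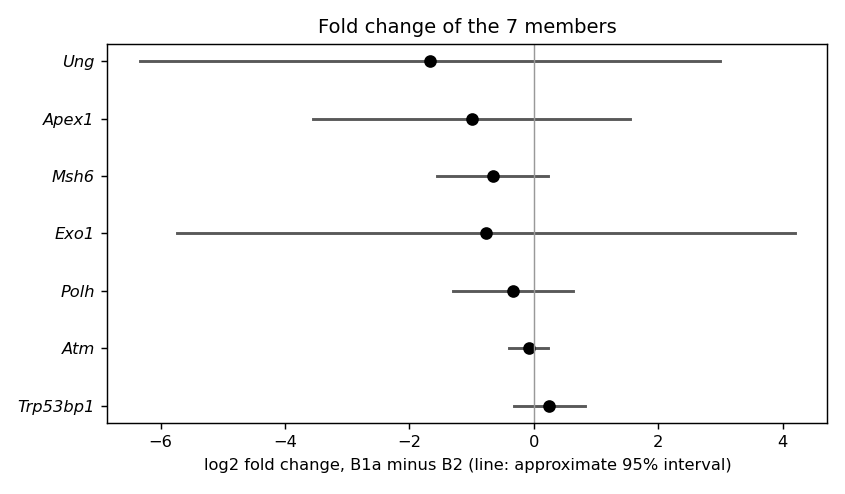
Log2 fold change (B1a minus B2) of the 7 genes from the edgeR fit of all 4 libraries; points are estimates and lines approximate 95% intervals. Every interval includes 0, from -6.33 to 2.99 for Ung to -0.40 to 0.23 for Atm.

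The spread within B1a cells was larger than within B2 cells for all members but Atm. Replicates differed by over 1 on the log2 scale in 4 of 7 members in B1a cells (Ung, Apex1, Msh6 and Exo1) and in 0 of 7 in B2 cells, where 30.8% and 8.07% of all tested genes did so. The median absolute difference between replicates was 1.06 over the members in B1a cells and 0.13 in B2 cells, against 0.54 and 0.22 over all tested genes. B1a replicate 1 was the lowest of the 4 libraries for 5 of 7 members, all but Atm and Trp53bp1, which was the case for 37.1% of all tested genes. Left with B1a replicate 1 as the lone B1a library, which was assumed to vary like the B2 libraries, edgeR called 5 of 7 members (Ung, Apex1, Msh6 and Exo1 lower and Trp53bp1 higher in B1a), and 48.9% of all tested genes. Left with B1a replicate 2, it called none of the 7 and 31% of all tested genes.

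Counts of 3 or fewer were more frequent in B1a replicate 1 than in the other libraries among genes of low abundance. Of the 841 tested genes with a mean of 2 to 4 CPM over the 4 libraries, the band of Exo1, 40.4% had 3 counts or fewer in B1a replicate 1, against 14.6% in B1a replicate 2 and 3.57% and 8.44% in the B2 libraries. In the band of 4 to 8 CPM, which holds Ung and Apex1, the shares were 20.1%, 4.11%, 2.49% and 3.92%. In the band of Polh, 16 to 32 CPM, the share was 0.624% in B1a replicate 1. Ung and Exo1 were thus among many genes of similar level with 3 counts or fewer in that library, although its total of 11578785 counts was close to that of B1a replicate 2, 11558489. It had a count for 11313 gene symbols, against 12515 in the other B1a library and 14265 and 12969 in the B2 libraries. The part of this difference in the members' values was not tested.

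**Figure D3:**
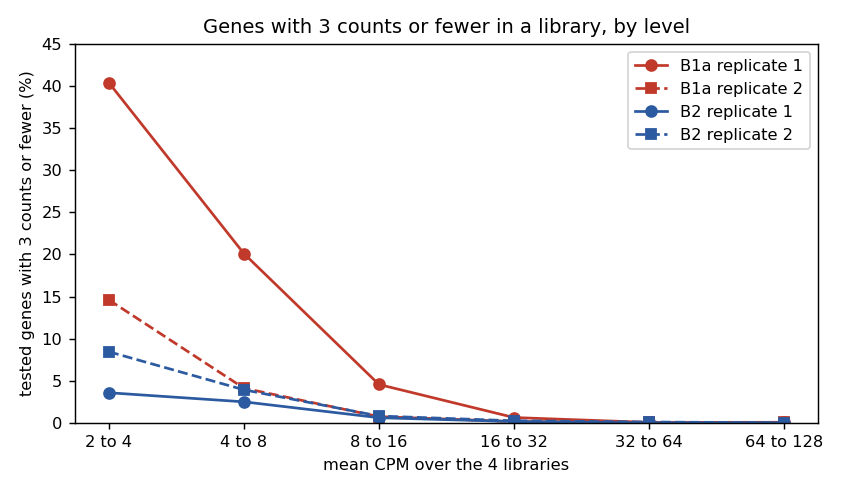
Share of tested genes with 3 counts or fewer in each library (percent, y axis) by mean CPM over the 4 libraries (x axis, bands that double); red marks B1a, blue B2, circles replicate 1 and squares replicate 2. B1a replicate 1 is at 40.4% in the band of Exo1 and at 20.1% in that of Ung and Apex1, above the other 3 libraries.

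Levels of different genes were compared in TPM, a unit that sums to the same total in each library and takes the length of the transcripts into account. Atm was the highest in all 4 libraries, at 51.0 and 49.0 TPM in B1a cells and 59.4 and 65.7 TPM in B2 cells. In B2 cells the order was Atm, Msh6 (54.8 and 58.1 TPM), Trp53bp1 (37.0 and 36.2), Polh (25.6 and 25.7), Apex1 (21.7 and 23.5), Ung (12.5 and 8.79) and Exo1 (1.52 and 2.73), and no 2 neighbours in this order overlapped. In B1a cells Trp53bp1 (46.0 and 28.6 TPM) and Msh6 (19.8 and 40.3 TPM) overlapped. Further down that order, Polh (14.7 and 19.7 TPM) overlapped Apex1 (2.76 and 16.2 TPM), which overlapped Ung (0 and 5.63 TPM), which overlapped Exo1 (0 and 2.09 TPM).

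Ung was below Smug1, a second uracil-DNA glycosylase, in every library, with Smug1 at 12.3 and 9.62 TPM in B1a cells and 19.0 and 17.9 TPM in B2 cells. The ratio of Ung to Smug1 was 0 and 0.585 in B1a cells and 0.656 and 0.492 in B2 cells, so outside B1a replicate 1 it varied little.

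Apex1 over its paralogue Apex2 was 0.156 and 1.68 in B1a cells and 0.979 and 1.32 in B2 cells. Trp53bp1 over Rif1, its effector in end protection, was 1.03 and 0.896 in B1a cells and 0.626 and 0.558 in B2 cells, without overlap. Rif1 itself was at 163 and 119 CPM in B1a cells and 183 and 204 CPM in B2 cells (log2 fold change -0.46, edgeR adjusted p = 0.256). Polh over Rev1, another translesion polymerase, was 0.319 and 0.742 against 0.834 and 0.863, and Atm over Nbn, which encodes the NBS1 subunit that recruits ATM to breaks, was 6.02 and 10.3 against 3.38 and 5.07, again without overlap. Nbn was at 8.87 and 5.13 CPM in B1a cells and 15.6 and 11.7 CPM in B2 cells. These ratios were not tested.

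Of 61 other genes of mutation and switch repair, 60 could be tested and 1 passed, while 5.74% of all tested genes did so. Parp1, which binds DNA breaks and promotes their repair, fell in B1a cells, at 273 and 277 CPM against 482 and 412 CPM in B2 cells (log2 fold change -0.70, SE 0.13, edgeR adjusted p = 0.0376). Parp1 passed in 9 of 9 alternatives with all libraries. It did not pass without B2 replicate 1 (log2 fold change -0.58, edgeR adjusted p = 0.347). In 27 of the 60 genes both B1a libraries were below both B2 libraries and in 8 both were above, while 29.0% and 25.3% of all tested genes did so. The medians by role were -0.25 for the targeting of deamination, -0.39 for base excision, -0.18 for mismatch repair, -0.30 for translesion synthesis, -0.46 for the break response and -0.10 for end joining.

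**Figure D4:**
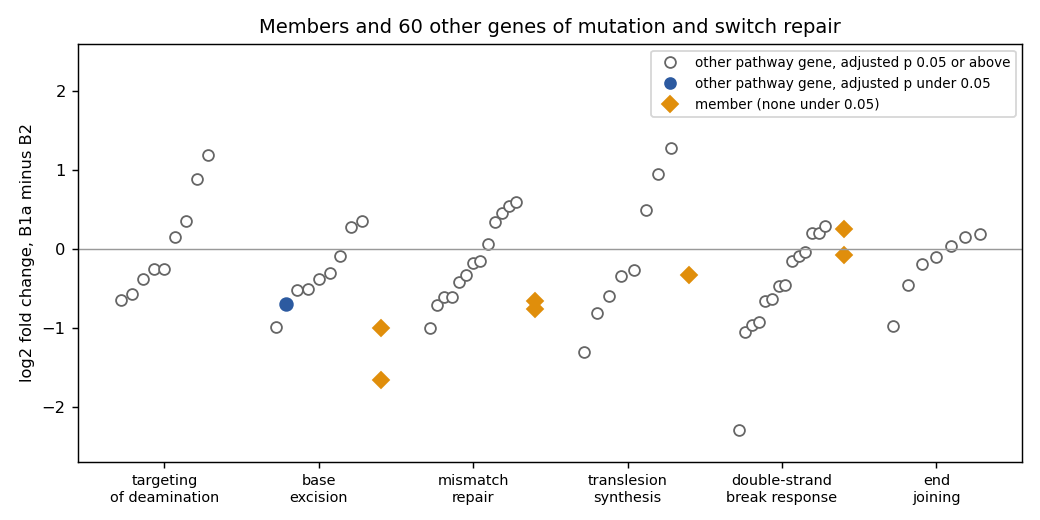
Log2 fold change (B1a minus B2) of the 7 members (orange diamonds) and 60 other genes of the pathway (circles), by role; the filled circle is the 1 gene with an edgeR adjusted p under 0.05, Parp1. The members lie between -1.67 and 0.25, within the span of the other genes, -2.30 to 1.28.

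Tested genes of the pathway outside the 7 that lay at or under 3 counts in a library were Shld1, a subunit of the shieldin complex that acts with 53BP1 (2 and 34 counts in B1a cells, 71 and 188 in B2 cells), and Nhej1, an end-joining factor (0 and 43 counts, and 40 and 79). Both reached that limit in B1a replicate 1, as Ung and Exo1 did.

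For each member, the pathway gene with the closest profile was taken as the one with the smallest root-mean-square distance of centred log2 CPM over the 4 libraries, among 60 candidates. The closest to Ung and to Exo1 was Nhej1, at distances of 0.47 and 0.25, where the median candidate was at 2.32 and 2.15. All of them had 0 counts in B1a replicate 1, and Nhej1 was the only candidate at 0 there. Their log2 CPM in that library came from the small count added before the log, so the match largely follows from the shared 0. Msh6 was closest to Rad50, a subunit of the complex that senses breaks, at 0.10. Apex1 was closest to H2afx, the histone variant phosphorylated at breaks, at 0.24. For the other members the nearest genes were Shld2 for Polh (0.10), Rbbp8 for Atm (0.07) and Mre11a for Trp53bp1 (0.09). The median candidate was also nearer to these members than to Ung and Exo1. It was at 0.60 for Msh6, 1.17 for Apex1, 0.40 for Polh, 0.34 for Atm and 0.41 for Trp53bp1. With 4 libraries, each distance is a description.

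Markers of other states and cell types also differed between the libraries. The summed level of 6 germinal centre markers was 44.7 and 21.9 CPM in B1a cells and 150.5 and 171.1 CPM in B2 cells, mostly Bcl6. Fas and Rgs13 were at 0 in both B1a libraries, while S1pr2 had the opposite order, at 0.807 and 4.77 CPM in B1a cells and 0.694 and 0.68 CPM in B2 cells. Of 15 proliferation genes 1 passed, while 5.74% of all tested genes did so, and 8 had a fold change below 0 and 7 above. The gene was Mki67, at 105 and 87.5 CPM in B1a cells and 23.4 and 40.5 CPM in B2 cells (log2 fold change 1.59, edgeR adjusted p = 0.0488). It passed in 6 of 9 alternatives with all libraries and did not pass without B2 replicate 1 (log2 fold change 1.249, edgeR adjusted p = 0.169), and the median of the list was -0.02. The summed macrophage markers (5 of 5 above 3 counts in every library) were at 190 and 240 CPM in B1a cells and 60.6 and 65.5 CPM in B2 cells. In B1a cells this was mostly Lyz2 (127 and 136 CPM), while Csf1r overlapped, at 16.9 and 21.9 CPM against 21.2 and 18.3 CPM in B2 cells. Mrc1 overlapped too. The 5 erythroid markers were at 78.8 and 504 CPM in B1a cells and 36.1 and 80.8 CPM in B2 cells, and the 3 mast cell markers were at 34.4 and 6.74 CPM in B1a cells and 0 and 0.941 CPM in B2 cells. The 5 plasma cell markers summed to 438 and 638 CPM in B1a cells and 343 and 385 CPM in B2 cells, mostly Irf4. Prdm1 was higher in both B1a libraries, while Sdc1 had the opposite order, at 0 and 8.27 CPM against 13.4 and 25.2 CPM in B2 cells. Xbp1 and Igj overlapped. The 5 T cell markers summed to 51.5 and 23.6 CPM in B1a cells and 38.2 and 39.5 CPM in B2 cells. Neutrophil markers were at 0 in both B1a libraries. The part of such cells in the members' values was not tested.

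Apex1, Polh and Atm start head to head with another gene, and the short stretch between the genes is printed because a shared upstream region allows the levels of both genes to be set side by side. These 3 were picked by position after the values had been seen. A start on the opposite strand within 1000 bases on either side was found for 3 of 7 members and for 16.7% of 11579 tested protein-coding genes (GENCODE M21 annotation of GRCm38). For these 3 members it lay upstream, while the share over all genes also counts pairs that overlap. The 2 annotations differ: GENCODE places the starts 75, 137 and 307 bases apart for Apex1, Polh and Atm. The RefSeq stretches printed below hold 55, 169 and 60 bases. Ung had no such start in GENCODE, although its 5′ end overlaps Alkbh2 in RefSeq. The count was not repeated with RefSeq starts. The sequences below are those of RefSeq (GRCm38.p6), on the strand of the member and 5′ to 3′, from the end of the neighbour to the base before the start of the member. They are chr14:50924894-50924948 on the plus strand, chr17:46202642-46202810 on the minus strand and chr9:53536829-53536888 on the minus strand, in the order printed. Capitals mark the GC box (GGGCGG) and the CCAAT box (CCAAT), each searched on both strands. For Atm, the start used in the promoter table lies further inside the gene.
Apex1, shared with Osgep: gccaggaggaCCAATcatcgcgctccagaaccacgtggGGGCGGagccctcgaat
Polh, shared with Xpo5: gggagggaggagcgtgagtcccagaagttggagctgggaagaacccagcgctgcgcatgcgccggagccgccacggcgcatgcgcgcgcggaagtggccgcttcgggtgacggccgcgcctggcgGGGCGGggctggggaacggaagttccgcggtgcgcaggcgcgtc
Atm, shared with Npat: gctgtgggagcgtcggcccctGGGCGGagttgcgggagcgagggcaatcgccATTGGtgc

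Of the 7 members, 6 had a promoter sequence in the RefSeq table (all but Exo1). A GC box was found in 6 of these 6, in 57.6% of the promoters of tested genes and in 32.9% of all promoters. For Ung and Trp53bp1 the bases just before the start used lie within annotated genes, so their GC boxes may lie within a gene. A CCAAT box was found in 3 (Apex1, Msh6 and Atm), in 36.8% of the promoters of tested genes and in 34.5% of all. These are matches of letters and not evidence of binding.

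The neighbours did not follow the members' levels. Osgep, which encodes a tRNA-modifying enzyme, was at 25.1 and 28.3 CPM in B1a cells and 29.2 and 23.9 CPM in B2 cells, so that its B1a replicate 1 value lay within the range of the other libraries while Apex1 on the other strand was at 1.43 CPM there. Npat, a regulator of histone gene transcription, was at 26.1 and 60.0 CPM in B1a cells and 53.6 and 70.7 CPM in B2 cells, and its low value in B1a replicate 1 stood beside 263 CPM for Atm. Xpo5, which exports precursor miRNAs, was at 95.1 and 93.7 CPM in B1a cells and 78.8 and 77.2 CPM in B2 cells, opposite in direction to Polh. No neighbour passed the test, with log2 fold changes of 0.01, -0.53 and 0.28 and edgeR adjusted p of 0.994, 0.568 and 0.462 for Osgep, Npat and Xpo5.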

How the data were processed

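RNA of sorted cells was sequenced in 4 libraries. The labels give total RNA and a kit with RiboErase (ribosomal RNA depletion), the methods a KAPA stranded kit, and the discussion of the study speaks of enriched polyadenylated RNA, so how RNA was selected is not settled. Reads were mapped by the authors to mm10, and RSEM assigned them to RefSeq gene models, 1 library at a time. The submitters' processing notes give RSEM version 1.2.29, while the methods name a different one. The authors deposited expected counts (not normalized) for 21970 entries, TPM scaled to the same total in each library, and a signal column with the posterior SD of each count. The deposited length column was not used for any result.

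Counts were summed by symbol and rounded. Genes were filtered with filterByExpr (12078 tested), scaled by TMM and tested with edgeR 4.0.16 (glmQLFit, glmQLFTest, no block, all 4 libraries), with Benjamini-Hochberg adjustment over all tested genes and a threshold of 0.05. The methods name EBSeq, which was not run. DESeq2 1.42.0, limma 3.58.1 (voom, and log2(TPM + 1) or log2(TPM + 0.1)), other filters and scalings, a replicate block and the removal of each library were tried as alternatives. The SE of an edgeR fold change was its absolute value divided by the square root of the F statistic, not an SE estimated by the model. Intervals were taken from the fold change and this SE with the degrees of freedom of the test, and are approximate. The scripts were tested on simulated counts. With 2 libraries a group, p-values measure the spread between these libraries only.

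Named were all members, the pathway genes that passed or lay at or under 3 counts, the members' partners and closest profiles, and the proliferation genes that passed. Some items of the lists are not reported here. The members and lists were chosen with earlier results of these data known. Coordinates are from RefSeq (GRCm38.p6, the same assembly as mm10).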

Additional observations from a re-analysis of the deposited data

How the results depend on the processing

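None of the 7 members passed under any of the 9 alternatives with all 4 libraries (Ung and Exo1 were not tested where at least 10 counts were required in every library), and 0 to 5 passed when 1 library was left out, the 5 without B1a replicate 2. Of 89 values of member fold changes under alternatives, 80 kept their direction and their side of the threshold, 5 came to pass and 4 changed sign. Exo1 was at 0.22 without B1a replicate 1, within a range of -8.91 to 0.22 over the fits without 1 library, whose low end sets a count of 0 against B2 cells and depends on the prior count. Trp53bp1 ranged from -0.0975 without B1a replicate 1 to 0.53 without B1a replicate 2, and lay at -0.0112 on log2(TPM + 1) and at -0.0124 on log2(TPM + 0.1), scales on which the median of all genes lay at -0.30 and -0.32 instead of -0.03. The causes were not tested. With all 4 libraries, the size of the fold change of Ung ranged from -3.92 (limma-voom) to -1.67, with -3.80 on log2(TPM + 0.1) and -3.57 with the replicate block, and it was -9.67 without B1a replicate 2. That of Exo1 ranged from -3.27 (limma-voom) to -0.77, with -2.19 on log2(TPM + 0.1) and -2.89 with the replicate block. The count of all genes that passed, 693, was 1550 with DESeq2, 1415 with limma-voom and a weight for each group, 1141 without a filter, 359 on log2(TPM + 0.1), and 539 to 6143 with 1 library left out. The pathway count of 1 was 3 with DESeq2, 3 with the group weights, 2 without a filter, and 0 to 25 with 1 library left out. The proliferation count of 1 was 0 with upper quartile factors, 0 on log2(TPM + 1), 0 on log2(TPM + 0.1), and 0 to 7 with 1 library left out. Libraries of the same replicate number did not deviate together (correlation over genes of -0.035). With the replicate number as a block, 1481 genes, 5 pathway genes and 0 members passed, and Msh6 had an edgeR adjusted p of 0.0959. In fits without 1 library the lone library is assumed to vary like the other group. With 3 counts as the limit, depth leaves levels below 0.269 CPM unresolved in B1a replicate 1, where Ung and Exo1 had 0 counts.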
